A study of Mus musculus with 2 samples.

Results

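The 10 genes described here are factors through which cells of the intestinal crypt choose between an absorptive and a secretory fate: the Notch ligands Dll1 and Dll4, the receptor Notch1, the Notch target Hes1, the secretory transcription factors Atoh1, Gfi1 and Spdef, the enteroendocrine factors Neurog3 and Sox4, and Sox9. They were taken by symbol from the gene tables of both libraries, where all 10 matched once among 55357 genes. All 10 had more than 20 unique molecular identifiers (UMIs, 1 per captured RNA molecule) over the 2 libraries, as had 16380 of all genes. The study asked how adiponectin made by Paneth cells acts on stem and transit-amplifying (TA) cells of the small intestine. It profiled epithelium that it describes as crypt-enriched, from male mice 8 weeks old, by droplet 3′ single-cell RNA sequencing. Mice were pooled, and 1 library came from Adipfl/fl mice, in which the adiponectin gene carries loxP sites and stays intact. The other came from Adipfl/flpVilli-CreT mice, which carry the same floxed alleles and a Cre driven by the villin promoter, so deletion was directed at the whole villin-positive epithelium and not at Paneth cells alone. Each genotype has 1 library, so no difference between genotypes was tested. Intervals, given in square brackets, are exact and at 95%, and they cover counting error only. Gene positions are those of GENCODE M21 on GRCm38.

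Notch signalling works between neighbouring cells. A cell that displays Dll1 or Dll4 activates Notch1 on the next cell, the freed intracellular part of the receptor joins Rbpj and switches on Hes1, and Hes1 represses Atoh1, which keeps the receiving cell on the stem or absorptive path. A cell that escapes the signal keeps Atoh1, a basic helix-loop-helix factor needed for all secretory lineages, and with it Gfi1 and Spdef, which favour goblet and Paneth cells, or Neurog3, which starts the enteroendocrine programme.

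Atoh1 binds E-boxes with the core CAGCTG, a palindrome that reads the same on both strands, and the promoters of the members were searched for it. RefSeq windows (GRCm38.p6) were found for 8 members, in 10 windows. Hes1 and Sox9 had no window, so their promoters were not searched. The 250 bases before the start held CAGCTG in 3 of these 10 windows, those of Neurog3, Sox4 and Dll1, against 13% of the windows of all genes. Other motifs were counted in the same windows with 50 bases after the start, on both strands. CANNTG, the general E-box, which contains CAGCTG, was in 6 of 10 against 72.3% of all windows. CACNAG, the N-box of Hes factors, was in 5 of 10 against 42.5%. TGGGAA, the core bound by Rbpj, was in 2 of 10 against 25.6%. The 3 windows with CAGCTG are shown so that the place of the match can be read. They run 5′ to 3′ along the gene's strand, with the match in capitals. That of Neurog3 is chr10:62132840-62133089 on the plus strand, with the match 165 bases before the start. That of Sox4 is chr13:28953700-28953949 on the minus strand, with the match 211 bases before the start. That of Dll1 is chr17:15376933-15377182 on the minus strand, with the match 132 bases before the start, in 1 of its 2 windows.
Neurog3: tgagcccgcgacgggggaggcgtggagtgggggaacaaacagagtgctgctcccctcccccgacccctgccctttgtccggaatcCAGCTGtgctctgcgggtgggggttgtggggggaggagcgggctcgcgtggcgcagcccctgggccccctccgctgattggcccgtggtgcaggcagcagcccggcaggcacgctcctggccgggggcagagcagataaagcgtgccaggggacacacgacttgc
Sox4: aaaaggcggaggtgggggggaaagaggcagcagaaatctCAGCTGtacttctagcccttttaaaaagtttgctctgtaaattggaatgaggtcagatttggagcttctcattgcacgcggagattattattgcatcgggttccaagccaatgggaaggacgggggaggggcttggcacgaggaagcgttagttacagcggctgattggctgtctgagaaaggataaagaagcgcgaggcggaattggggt
Dll1: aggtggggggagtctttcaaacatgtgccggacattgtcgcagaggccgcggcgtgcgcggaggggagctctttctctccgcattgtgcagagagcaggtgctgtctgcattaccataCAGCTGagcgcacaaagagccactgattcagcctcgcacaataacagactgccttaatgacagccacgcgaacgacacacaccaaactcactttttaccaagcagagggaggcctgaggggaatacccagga
A match describes the letters in this window and was not tested as a binding site.

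After cells with 500 or fewer genes or 25% or more mitochondrial UMIs were left out, 3069 Adipfl/fl and 5555 Adipfl/flpVilli-CreT cells remained. Their median depths were 4838 and 4749 UMIs, and 3 barcodes occurred in both libraries. Over 500 genes were found in 7739 Adipfl/fl and 9818 Adipfl/flpVilli-CreT barcodes, so the mitochondrial limit removed a larger part of the Adipfl/fl library. The paper reports more cells of each genotype after its own filter. Cells were clustered without the 10 members, so their levels did not make the classes. Crypt cells numbered 86 and 283 in Adipfl/fl and Adipfl/flpVilli-CreT, the order used for paired values from here on: 40 and 120 stem-like cells, in which all 11 stem markers and all 12 cycling markers were enriched, 46 and 108 TA-like cells, and 55 cycling cells of the Adipfl/flpVilli-CreT library that stayed unnamed. Secretory cells numbered 281 and 466, of which 225 and 408 were goblet-like and 56 and 58 enteroendocrine-like. No cluster could be named Paneth, and 7 of 9 Paneth markers were enriched in the goblet-like cluster, 6 in the stem-like cluster and 5 in the unnamed cycling cells. The 5 fibroblast markers Col1a1, Col1a2, Col3a1, Dcn and Acta2 were enriched in the stem-like cluster too. The part of stromal RNA in stem-like values was not tested. Absorptive cells numbered 2063 and 4129. They comprise villus bottom-like, mid-villus-like and villus tip-like enterocytes. The mid-villus-like class is the least sure, since 326 of 934 and 697 of 1556 of its cells lay in clusters with 3 or more mid-villus markers over all other cells. The rest were placed by their markers over cells that are no enterocytes. Depth differed between classes, with medians of 18355.5 and 18173 UMIs in stem-like cells and 5582 and 6294 in goblet-like cells. Levels are in CPM, the UMIs of a gene for each 1000000 UMIs of the cells named. Goblet RNA in cells that should lack it was higher in the Adipfl/flpVilli-CreT library, where the 7 goblet markers summed to 5232 CPM in T cell-like cells against 255 CPM in Adipfl/fl, with none of the 7 at 0 in either. Adipoq itself had 0 UMIs in the kept cells of both libraries, so the deletion could not be checked from these data.

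**Figure D1:**
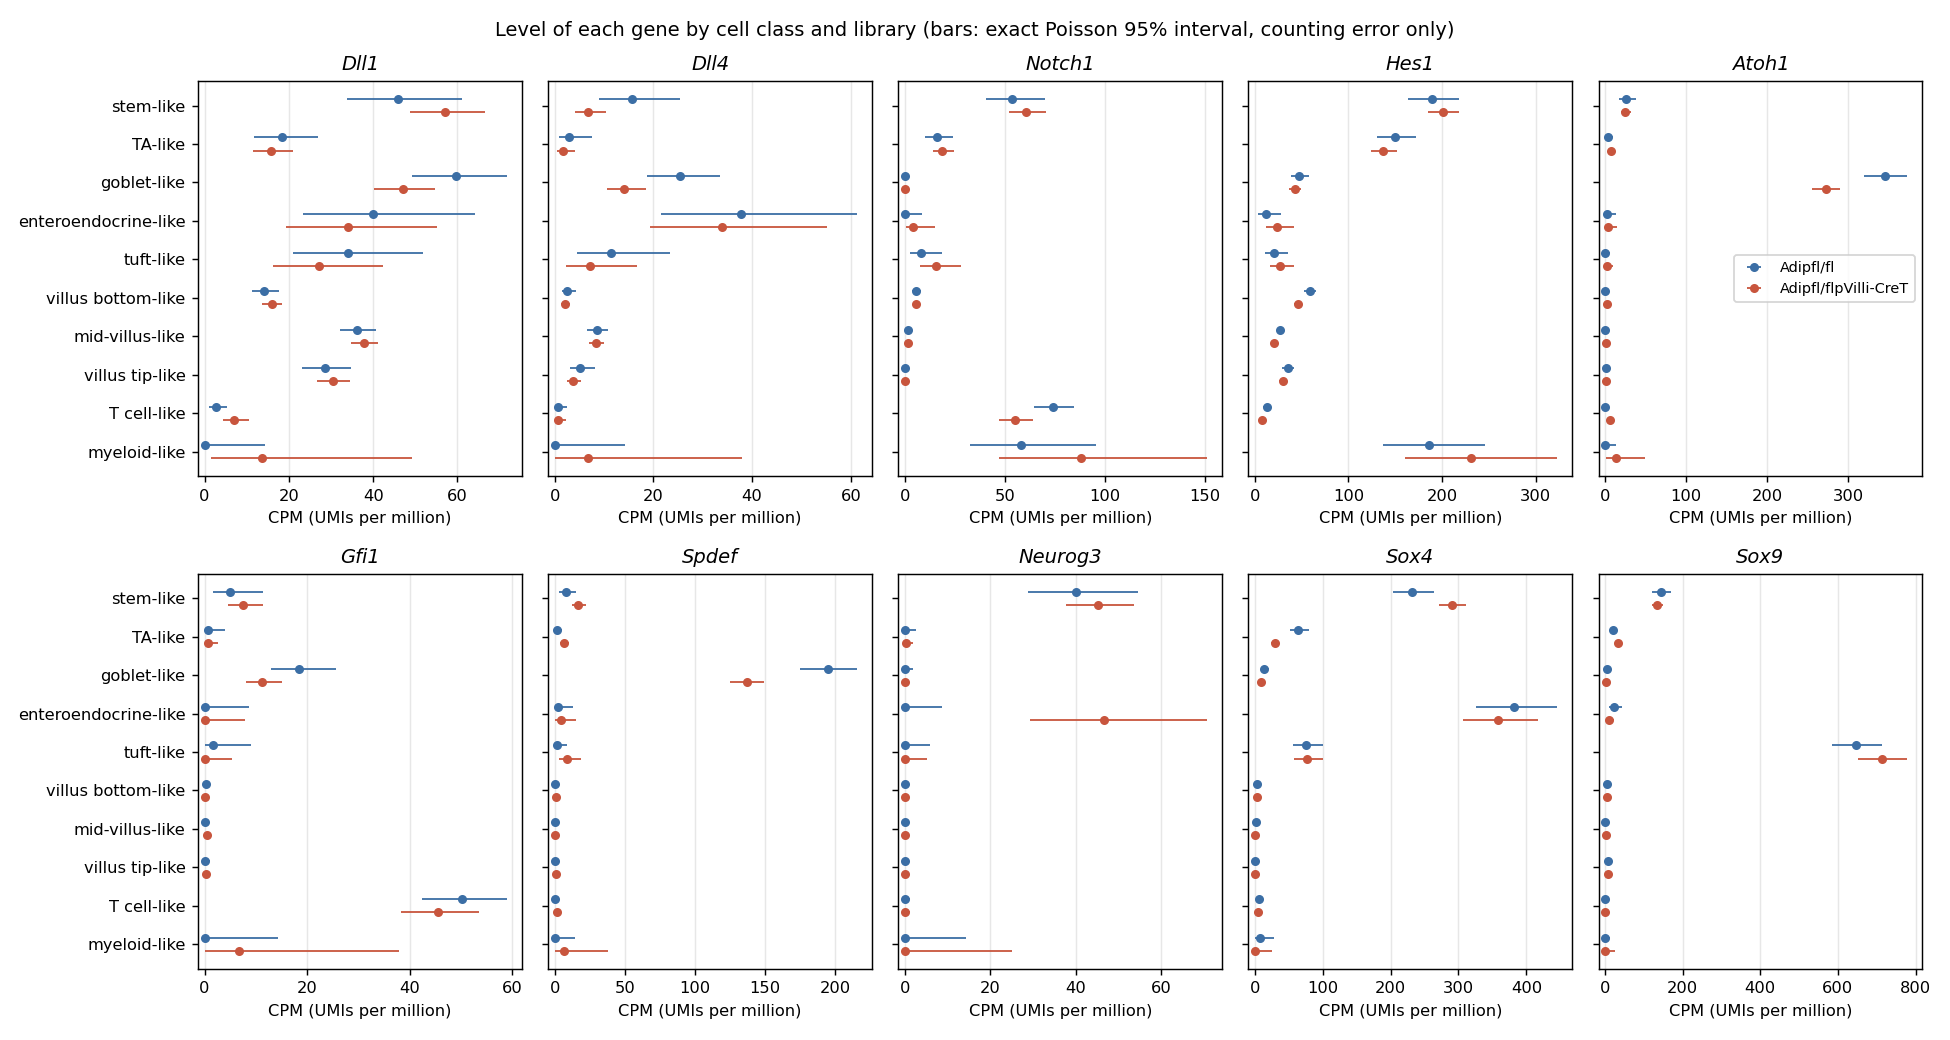
Level of each of the 10 genes in CPM (linear axis from 0, its own scale for each gene) in 10 cell classes, with 1 point per library (blue Adipfl/fl, red Adipfl/flpVilli-CreT) and lines for the exact 95% counting interval. Atoh1 and Spdef stand highest in goblet-like cells, Sox9 in tuft-like cells, Gfi1 in T cell-like cells, Sox4 in enteroendocrine-like and stem-like cells, and Hes1 in crypt and myeloid-like cells.

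Atoh1 (ENSMUSG00000073043, chr6:64729125-64731245, plus strand) was carried mainly by goblet-like cells. Goblet-like cells held 653 and 1001 Atoh1 UMIs, which is 345 CPM [319-372] and 272 CPM [256-290]. The interval lies above that of every other class in both libraries. An Atoh1 UMI was seen in 82.2% and 79.2% of goblet-like cells, at median depths of 5582 and 6294 UMIs. With every cell thinned to 2000 UMIs, the share was 52.1% [45.2-58.9] and 44.3% [39.3-49.4] in goblet-like cells. It was 0.121% and 0.252% in villus tip-like cells, which should lack Atoh1. Stem-like cells came next among the named classes, with 26.4 CPM [17.4-38.5] and 25 CPM [19.6-31.6]. Their UMIs were held by few cells, 5 of 40 and 22 of 120, and 15 of the 27 Adipfl/fl UMIs came from 1 cell. Enteroendocrine-like cells held 1 and 2 Atoh1 UMIs.

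Spdef (ENSMUSG00000024215, chr17:27714352-27728955, minus strand), an ETS factor of goblet and Paneth cell maturation, was likewise highest in goblet-like cells, above every other class. Its level in goblet-like cells was 195 CPM [175-216] in Adipfl/fl, from 369 UMIs in 69.8% of cells. In Adipfl/flpVilli-CreT it was 137 CPM [125-150], from 504 UMIs in 61.0% of cells. After thinning to 2000 UMIs, 39.5% and 28.6% of goblet-like cells held a Spdef UMI. Outside goblet-like cells the Adipfl/fl library had few Spdef UMIs, 8 in stem-like, 2 in TA-like and 6 in absorptive cells.

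Gfi1 (ENSMUSG00000029275, chr5:107716657-107726036, minus strand), a zinc finger repressor that acts after Atoh1 in secretory cells and also works in lymphocytes, had its highest level outside the epithelium. T cell-like cells held 148 and 144 of its 192 and 219 UMIs, 50.2 CPM [42.4-59.0] and 45.5 CPM [38.4-53.5]. Goblet-like cells held 35 and 41, 18.5 CPM [12.9-25.7] and 11.1 CPM [8.0-15.1], and these intervals do not reach those of T cell-like cells. Enteroendocrine-like cells held none, and absorptive cells 1 and 9. A Gfi1 value over all cells of these libraries therefore comes mostly from T cell-like cells.

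**Figure D2:**
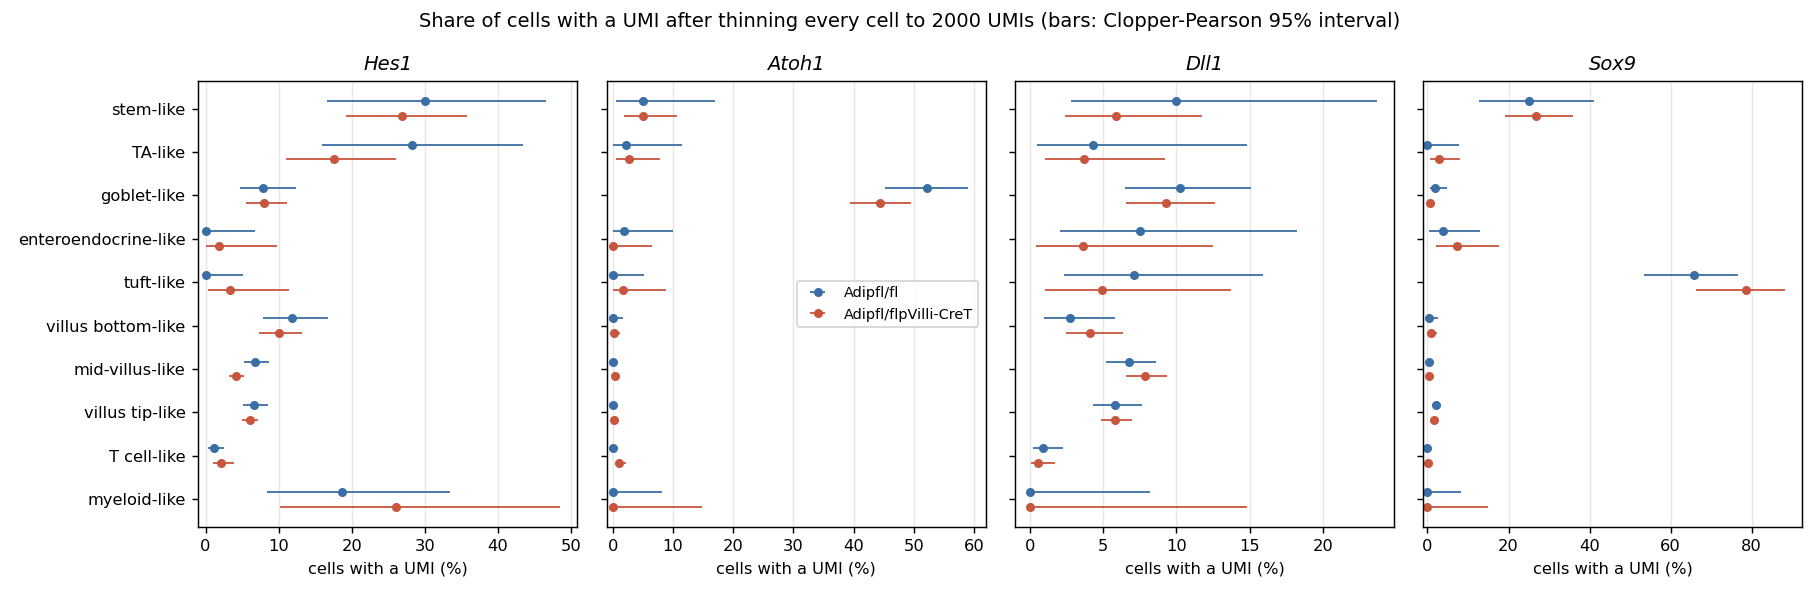
Share of cells (percent) with at least 1 UMI of Hes1, Atoh1, Dll1 or Sox9 after every cell was thinned to 2000 UMIs, by class and library, with lines for the exact 95% binomial interval. Atoh1 was seen in 52.1% and 44.3% of goblet-like cells and Sox9 in 65.7% and 78.7% of tuft-like cells, while Dll1 was seen in some cells of every secretory, crypt and enterocyte class.

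Neurog3 (ENSMUSG00000044312, chr10:62133090-62134763, plus strand) was found in very few cells. In Adipfl/fl, all 41 UMIs lay in 1 stem-like cell, 40.1 CPM [28.8-54.5] for the class. In Adipfl/flpVilli-CreT, 9 cells held 151 UMIs. Of these, 128 lay in 6 stem-like cells, 45.1 CPM [37.7-53.7], with 37 in the richest cell. Another 22 lay in 2 enteroendocrine-like cells, 21 of them in 1 cell, and 1 in a TA-like cell. Goblet-like cells had 0 Neurog3 UMIs in both libraries, with exact upper limits of 1.95 and 1.00 CPM. Over all cells the share with a Neurog3 UMI was 0.0326% and 0.162%.

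Sox4 (ENSMUSG00000076431, chr13:28948919-28953713, minus strand), an HMG-box factor that acts early in the enteroendocrine and tuft lineages, was carried by enteroendocrine-like and stem-like cells. Enteroendocrine-like cells held 162 and 169 UMIs, 382 CPM [325-445] and 358 CPM [306-417]. Stem-like cells held 237 and 825, 232 CPM [203-264] and 291 CPM [271-311]. The enteroendocrine interval lies above the stem interval in Adipfl/fl, and the 2 overlap in Adipfl/flpVilli-CreT. Sox4 differed within the enteroendocrine-like cells too. The cluster of 24 and 27 cells had 626 and 632 CPM, and the cluster of 32 and 31 cells had 220 and 119 CPM. The enteroendocrine Neurog3 UMIs lay in the latter cluster, 22 in 2 Adipfl/flpVilli-CreT cells with 21 in 1 cell, too few to set against Sox4. Tuft-like cells had 76.0 CPM [55.9-101] and 77.2 CPM [58.0-101] of Sox4, and absorptive cells 1.60 and 1.51 CPM. In Adipfl/fl TA-like cells, 38 of 88 UMIs came from 1 cell.

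Sox9 (ENSMUSG00000000567, chr11:112782224-112787760, plus strand), an HMG-box factor of the crypt base that Paneth cells require, was highest in tuft-like cells and next highest in stem-like cells. Tuft-like cells held 400 and 499 Sox9 UMIs, 647 CPM [585-714] and 713 CPM [652-778]. A Sox9 UMI was seen in 84.2% and 95.2% of the 76 and 62 tuft-like cells. Stem-like cells had 145 CPM [123-170] and 135 CPM [122-149]. TA-like cells had 19.7 CPM [13-28.7] and 34.9 CPM [28.4-42.5]. These intervals separate tuft-like from stem-like and stem-like from TA-like cells in both libraries. Goblet-like cells had 6.33 CPM [3.27-11.1] and 2.99 CPM [1.49-5.35], less than the villus tip-like value of 8.43 CPM [6.56-10.7] in Adipfl/flpVilli-CreT.

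Hes1 (ENSMUSG00000022528, chr16:30064384-30067796, plus strand), the repressor switched on by Notch, was high in the crypt and lower along the villus. Stem-like cells had 189 CPM [163-218] and 201 CPM [184-218]. TA-like cells had 150 CPM [130-172] and 137 CPM [124-152], so the 2 crypt classes differed beyond their intervals in Adipfl/flpVilli-CreT only. Villus bottom-like cells had 58.5 CPM [52.2-65.3] and 45.7 CPM [41.9-49.8], below TA-like cells in both libraries. Mid-villus-like cells had 27.4 CPM [23.9-31.3] and 20.1 CPM [17.9-22.6], but their clusters differed. Those with 3 or more mid-villus markers had 23.2 CPM [19.1-27.8] and 14.7 CPM [12.5-17.2], and the rest 34.1 CPM [27.9-41.2] and 33.7 CPM [28.4-39.7]. In 1 cluster of the latter, of 109 and 214 cells, Hes1 was 51.7 CPM [37.7-69.2] and 47.6 CPM [36.5-61.1], which overlaps the villus bottom. Villus tip-like cells had 35.4 CPM [29.4-42.2] and 29.9 CPM [26.3-33.9]. Goblet-like cells had 47.5 CPM [38.2-58.4] and 42.4 CPM [36.0-49.6], against 12.5 and 8.21 CPM in T cell-like cells. Thinned to 2000 UMIs, 7.91% [4.67-12.4] and 7.99% [5.49-11.1] of goblet-like cells held a Hes1 UMI, against 1.11% [0.363-2.58] and 2.17% [1.09-3.86] of T cell-like cells. Of goblet-like cells with an Atoh1 UMI, 45 of 185 and 79 of 323 also held a Hes1 UMI. Of goblet-like cells without one, 14 of 40 and 24 of 85 did. Myeloid-like cells, which are no epithelium, had 186 CPM [137-246] and 231 CPM [160-323].

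Notch1 (ENSMUSG00000026923, chr2:26457903-26516663, minus strand) was carried by stem-like cells and by immune cells. Stem-like cells held 55 and 172 UMIs, 53.9 CPM [40.6-70.1] and 60.7 CPM [51.9-70.4]. TA-like cells had 16.1 CPM [10.1-24.4] and 18.9 CPM [14.2-24.6], below stem-like cells in both libraries. Values were lower along the villus, from 5.70 and 5.84 CPM at the bottom to 1.88 and 1.81 CPM in mid-villus-like cells and 1 UMI per library at the tip. Goblet-like cells held 0 Notch1 UMIs in 225 and 408 cells, with exact upper limits of 1.95 and 1.00 CPM, and enteroendocrine-like cells held 0 and 2. T cell-like cells, in which Notch1 is active during development, had 74.3 CPM [64.8-84.8] and 55.3 CPM [47.4-64.1]. Over all cells, 219 of 382 and 175 of 533 Notch1 UMIs came from T cell-like cells.

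Dll1 (ENSMUSG00000014773, chr17:15367354-15376872, minus strand) was present in secretory, stem-like and absorptive cells. Goblet-like cells had 59.7 CPM [49.2-71.7] and 47.0 CPM [40.3-54.6], and stem-like cells 46.0 CPM [33.8-61.2] and 57.1 CPM [48.7-66.6], so the intervals of these classes overlap in both libraries. Enterocytes carried it as well. Villus bottom-like cells had 14.2 CPM [11.2-17.7] and 15.9 CPM [13.7-18.4]. Mid-villus-like cells had 36.2 CPM [32.1-40.6] and 37.9 CPM [34.9-41.2], above the villus bottom in both libraries. The mid-villus clusters with 3 or more markers had 28.5 CPM [24.0-33.6] and 37.4 CPM [33.8-41.2], also above it. Villus tip-like cells had 28.5 CPM [23.2-34.7] and 30.4 CPM [26.7-34.4]. T cell-like cells had 2.71 and 6.95 CPM. Thinned to 2000 UMIs, 6.79% and 7.85% of mid-villus-like cells held a Dll1 UMI against 0.891% and 0.593% of T cell-like cells, so the mid-villus value is above this background. Of the 697 and 1435 Dll1 UMIs over all cells, 465 and 994 lay in absorptive cells.

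Dll4 (ENSMUSG00000027314, chr2:119325784-119335962, plus strand) was highest in the 2 secretory classes. Enteroendocrine-like cells had 37.7 CPM [21.5-61.2] and 33.9 CPM [19.4-55.1], from 16 UMIs in each library. Goblet-like cells had 25.3 CPM [18.7-33.6] and 14.1 CPM [10.6-18.5]. Stem-like cells had 15.7 CPM [8.95-25.4] and 6.70 CPM [4.03-10.5]. Along the villus the values were 2.57 and 2.12 CPM at the bottom, 8.54 and 8.39 CPM in the mid-villus and 5.14 and 3.79 CPM at the tip, the same order as for Dll1.

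Set against absorptive cells, 6 of the 9 members with enough UMIs were at least 1.5-fold higher in secretory cells in both libraries and 1 was lower in both. Among all 11935 genes with enough UMIs, 16.4% were that much higher in both libraries. No such share is given for genes lower in both. Enough means 20 or more UMIs in the compared cells of a library. Atoh1 was 477-fold (lower limit 258) and 130-fold [101-170] higher in secretory cells. Spdef was 450-fold [205-1233] and 200-fold [129-325] higher. Sox4 was 51.0-fold and 32.4-fold higher. Gfi1 was 255-fold [42.9-10363] higher, from 35 UMIs against 1, and 37.8-fold [18.1-88.4]. Dll4 was 4.67-fold [3.35-6.45] and 3.13-fold [2.33-4.16] higher, and Dll1 2.04-fold [1.66-2.48] and 1.58-fold [1.34-1.84]. Hes1 was near even, at 1.05-fold and 1.30-fold. Notch1 was the member that was lower, with 0 and 2 UMIs in secretory cells against 47 and 94 in absorptive cells. Sox9 was 2.23-fold [1.32-3.63] in Adipfl/fl, from 22 secretory UMIs with 6 in 1 cell. In Adipfl/flpVilli-CreT it was 0.758-fold [0.424-1.27], an interval that holds 1.

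Crypt cells were at least 1.5-fold above absorptive cells in both libraries for 6 of 8 members, beside 42.7% of all genes with enough UMIs. Sox4 was 85.2-fold and 99.4-fold higher in crypt cells. Sox9 was 17.2-fold and 15.9-fold higher, and Notch1 11.6-fold and 13.8-fold. Hes1 was 4.27-fold [3.76-4.84] and 5.40-fold [4.95-5.89] higher. Neurog3 had 0 UMIs in absorptive cells. With that 0 set to 3 UMIs, crypt cells were 96.7-fold and 243-fold higher, though this rests on 1 and 7 cells. The exact lower limits were 75.2-fold and 195-fold. Atoh1 was 23.4-fold and 9.11-fold higher. The ligands differed least, Dll1 by 1.10-fold and 1.19-fold and Dll4 by 1.42-fold and 0.817-fold.

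A list of 51 pathway genes, which includes 4 of the members, had 36 with enough UMIs, of which 17 were higher in crypt than in absorptive cells in both libraries and 6 lower. The 17 are 47.2%, near the 42.7% of all genes. No share over all genes is given for the 6 lower, so their count is not read as a result. Nrarp, a feedback target of Notch, had 31.0 and 38.2 CPM in crypt cells against 8.58 and 8.11 CPM in absorptive cells. It was lower in secretory cells, with 3.45 and 3.37 CPM. Rbpj, the DNA-binding partner of the receptor, was 2.48-fold and 2.73-fold higher in crypt than in absorptive cells, and Notch2, the second receptor of the crypt, 7.08-fold and 10.2-fold. Numb, an inhibitor of the receptor, was lower in crypt cells, with 25.1 and 25.2 CPM against 58.3 and 60.0 CPM, and Hes2 had 1.67 and 1.81 CPM in crypt cells against 20.6 and 18.1 CPM.

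Between secretory and absorptive cells, 7 of 36 pathway genes (19.4%, near the 16.4% of all genes) were higher in secretory cells in both libraries and 6 lower. Here too no share over all genes is given for the 6 lower. Neurl1a, an E3 ligase that drives uptake of Notch ligands, had 30.2 and 19.0 CPM in secretory cells against 0.237 and 0.174 CPM in absorptive cells. Jag2, a further ligand, was 10.8-fold and 7.1-fold higher in secretory cells. In a list of 30 lineage factors, which includes the other 6 members, 23 of the 24 with enough UMIs were higher in secretory than in absorptive cells in both libraries and none was lower. Foxa3, a goblet and Paneth cell factor, had 167 and 147 CPM in secretory cells, and Neurod1, an enteroendocrine factor downstream of Neurog3, had 322 and 203 CPM.

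Within the stem-like class, Dll1, Dll4, Spdef and Gfi1 were found more often in cells with an Atoh1 UMI than in cells without one. Sox4 was not confined to few cells, with a UMI in 30 of 40 and 99 of 120 stem-like cells. An Atoh1 UMI was present in 5 of 40 and 22 of 120 stem-like cells. Of the 22 in Adipfl/flpVilli-CreT, 21 also held Dll1 (95.5% [77.2-99.9]), against 28 of 98 without Atoh1 (28.6% [19.9-38.6]). In Adipfl/fl all 5 held Dll1, against 10 of 35. Dll4 was found in 12 of 22 against 2 of 98 in Adipfl/flpVilli-CreT, and in all 5 against 5 of 35 in Adipfl/fl. Spdef was found in 14 of 22 against 1 of 98, and in 4 of 5 against 2 of 35. Gfi1 was found in 11 of 22 against 2 of 98, and in 3 of 5 against 1 of 35. Depth differed between these cells, with medians of 18065 and 23156.5 UMIs with Atoh1 and 19460 and 16254.5 without. Thinned to 10000 UMIs, which left out 1 and 1 cells with Atoh1 and 9 and 29 without, Dll1 was found in 4 of 4 and 16 of 21 cells with Atoh1 against 2 of 26 and 7 of 69 without. Spdef was then found in 2 of 4 and 10 of 21 against 0 of 26 and 1 of 69. Dll4 was found in 2 of 4 and 4 of 21 against 5 of 26 and 1 of 69, and Gfi1 in 1 of 4 and 4 of 21 against 0 of 26 and 2 of 69, with binomial intervals that overlap in both libraries.

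In level, Dll1 in stem-like cells with Atoh1 was 347 CPM [237-489] and 159 CPM [132-191]. Without Atoh1 it was 16.1 CPM [9.04-26.6] and 21.4 CPM [15.6-28.7]. Both values with Atoh1 also lie above the goblet-like level of 59.7 and 47.0 CPM. Of the 48 Spdef UMIs in Adipfl/flpVilli-CreT stem-like cells, 47 lay in the 22 cells with Atoh1, and of the 19 Dll4 UMIs, 17. The Notch receptor and target went the other way in level. Hes1 was 75.8 CPM [30.5-156] and 144 CPM [118-174] in cells with Atoh1, against 200 CPM [172-231] and 220 CPM [201-241] in cells without. Notch1 was 0 UMIs and 39.4 CPM [26.4-56.6] with Atoh1, against 59.2 CPM [44.6-77.1] and 68.1 CPM [57.4-80.2] without. For Sox9 the intervals overlap, with 162 and 137 CPM with Atoh1 and 143 and 134 CPM without.

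**Figure D3:**
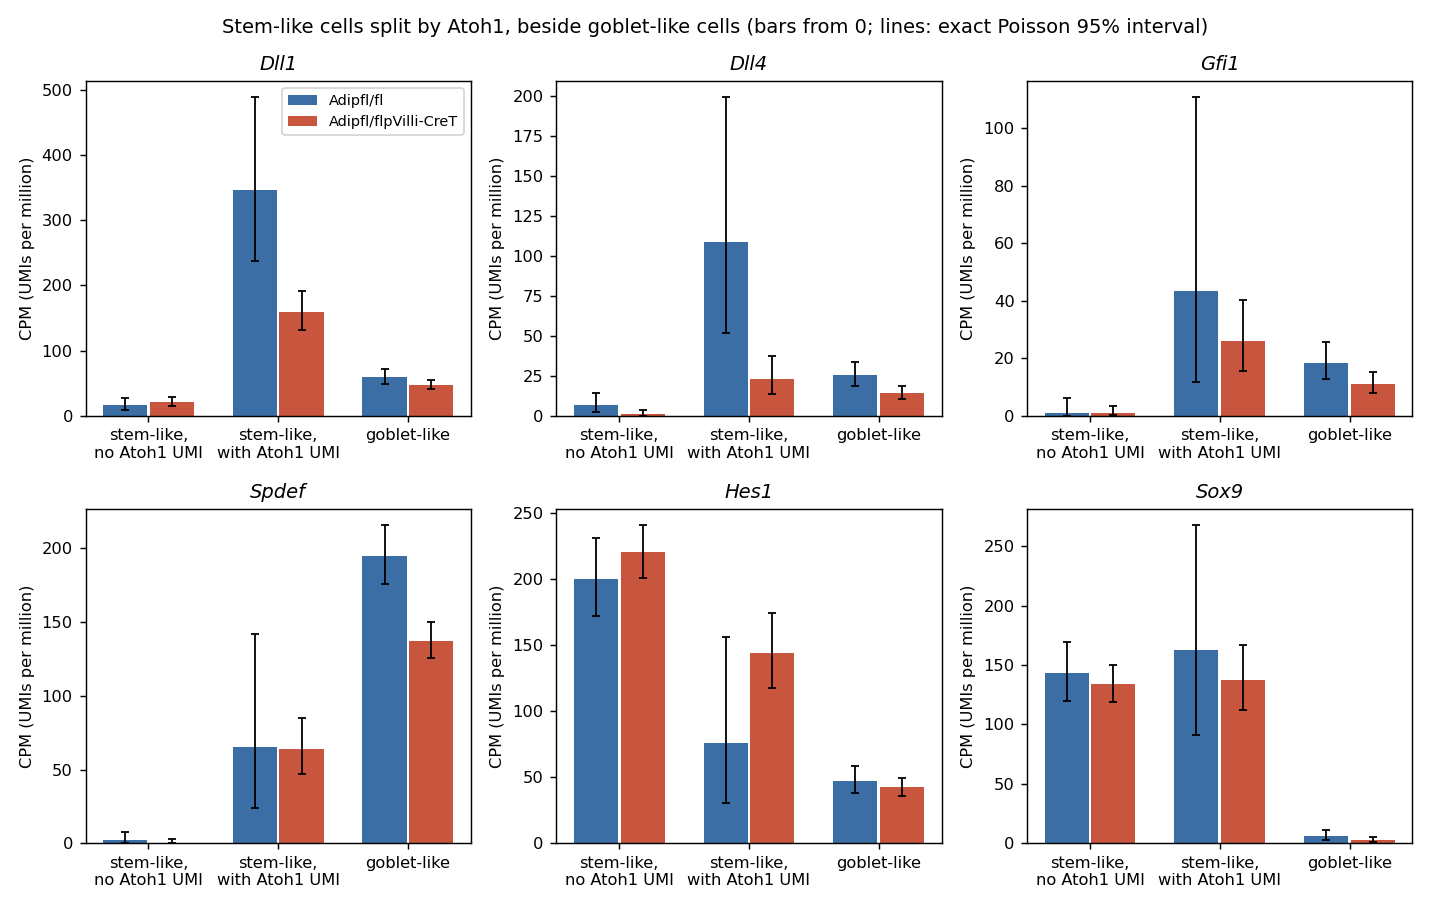
Level in CPM (bars from 0, linear axis) of Dll1, Dll4, Gfi1, Spdef, Hes1 and Sox9 in stem-like cells without an Atoh1 UMI (35 and 98 cells), in stem-like cells with one (5 and 22 cells) and in goblet-like cells, by library, with lines for the exact 95% counting interval. Dll1, Dll4, Gfi1 and Spdef are higher in stem-like cells with Atoh1 than in those without and Hes1 is lower, and Dll1 there is also above goblet-like cells.

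These stem-like cells with Atoh1 also carried goblet RNA, and some had high doublet scores. Their 7 goblet markers summed to 44753 and 20448 CPM, against 515 and 1554 CPM in stem-like cells without Atoh1. Olfm4, a stem cell gene, was 119 and 1442 CPM with Atoh1 and 2475 and 3707 CPM without. Among the 8% of cells with the highest doublet scores were 4 of the 5 and 5 of the 22 cells with Atoh1, and 1 of 35 and 3 of 98 without. Their Dll1, which did not choose them, was 291 [190-435] and 118 [96.8-143] for each 1000 UMIs of the mucin Muc2, against 1.27 and 1.15 in goblet-like cells. This value was 470 and 142 in absorptive, 676 and 42.6 in TA-like and 76.9 and 8.59 in T cell-like cells. A high Dll1 value was therefore not particular to the stem-like cells with Atoh1. The same value for Spdef was 54.5 [19.6-123] and 47.5 [34.7-63.7] in them, from 6 and 47 UMIs. It was 4.15 and 3.34 in goblet-like, 6.07 and 2.9996 in absorptive and 0 and 1.95 in T cell-like cells. In TA-like cells it was 54.1 [6.31-210] and 17.98 [10.8-28.2]. In Adipfl/flpVilli-CreT the interval of the stem-like cells with Atoh1 lay above each of the others. In Adipfl/fl it overlapped those of TA-like and T cell-like cells. The part of doublets in the stem-like cells with Atoh1 was not tested beyond these values.

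Between the genotypes, 3 of 10 members were at least 1.5-fold apart in crypt cells, 2 higher and 1 lower in Adipfl/flpVilli-CreT, beside 12.4% of all genes. For genotypes the minimum of 20 UMIs is taken over both libraries. Hes1 in crypt cells was 167 and 167 CPM, a ratio of 1.00 [0.890-1.13] for Adipfl/flpVilli-CreT over Adipfl/fl. The ratio was 1.17 for Notch1, 1.14 for Dll1, 1.10 for Sox4 and 1.10 for Sox9. Spdef was 4.19 and 12.3 CPM, a ratio of 2.95 [1.52-6.40], from 10 and 75 UMIs, which was 1.24 with every cell weighted alike and 7.20 without high doublet scores. Dll4 was 8.37 and 4.28 CPM, a ratio of 0.511 [0.274-0.965], and its direction turned when cells with high doublet scores were removed. Gfi1 was 2.51 and 3.78 CPM, a ratio of 1.51 [0.596-4.52] from 6 and 23 UMIs, and its direction turned with every cell weighted alike. Atoh1 was 13.8 and 16.9 CPM, a ratio of 1.23, and 12.1 once cells with high doublet scores were removed. Goblet RNA was higher in the same crypt cells, with 6 of 7 goblet markers at least 1.5-fold higher and a median log2 ratio of 2.21, against -0.01 for all genes. Its part in the Spdef value was not tested. Without the 55 unnamed cycling cells, in which the goblet markers summed to 44216 CPM, Spdef, Gfi1 and Dll4 were again those 1.5-fold apart. Of the 35 pathway genes with enough UMIs in crypt cells, 1 was higher and 2 were lower, with a median log2 ratio of 0.00.

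In stem-like cells alone 3 of 10 members were 1.5-fold apart, beside 15.7% of all genes. Spdef was 7.83 CPM [3.38-15.4] and 16.9 CPM [12.5-22.4], a ratio of 2.16 [1.01-5.29]. With the mean of per-cell levels in place of the sum, its direction turned, as did that of Gfi1. Dll4 was 15.7 and 6.70 CPM, a ratio of 0.428 [0.208-0.889], and it too turned when cells with high doublet scores were removed. Sox4 was 232 and 291 CPM, a ratio of 1.25 [1.08-1.45]. Hes1 was 189 and 201 CPM, a ratio of 1.06, and Atoh1 26.4 and 25 CPM, a ratio of 0.947, which was 16.1 once cells with high doublet scores were removed, 4 of the 5 Adipfl/fl cells with Atoh1 among them. Neurog3 had 40.1 and 45.1 CPM there, from 1 and 6 cells, a ratio of 1.12. Once cells with high doublet scores were removed it was 10.9, with an Adipfl/fl count of 0 set to 3 UMIs. Its downstream factors rest on as few cells in Adipfl/fl: all 29 UMIs of Neurod1 and all 22 of Nkx2-2 lay in 1 cell, against 20 UMIs in 4 cells and 21 UMIs in 6 cells in Adipfl/flpVilli-CreT. In TA-like cells Sox4 was 64.4 and 29.4 CPM, a ratio of 0.456 [0.334-0.622], where 1 Adipfl/fl cell held 38 of 88 UMIs. It was 0.802 with over 1000 genes required per cell. Sox9 was 19.7 and 34.9 CPM there, a ratio of 1.77 [1.15-2.82].

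In goblet-like cells all 8 members with enough UMIs were lower in Adipfl/flpVilli-CreT, beside 40.0% of all genes there with a ratio below 1. Of these, Gfi1, Dll4, Sox4 and Sox9 were at least 1.5-fold lower and none that much higher, beside 19.1% of all genes that far apart either way. Atoh1 was 345 and 272 CPM, a ratio of 0.789 [0.715-0.873]. Spdef was 195 and 137 CPM, a ratio of 0.703 [0.614-0.807]. Gfi1 was 18.5 and 11.1 CPM, a ratio of 0.603 [0.375-0.976]. Dll4 was 25.3 and 14.1 CPM, a ratio of 0.558 [0.370-0.844]. For Atoh1, Spdef, Gfi1 and Dll4 the interval of the ratio lies below 1. Dll1 had a ratio of 0.788 [0.618-1.01], Hes1 of 0.893 [0.684-1.17], Sox4 of 0.649 [0.380-1.12] and Sox9 of 0.472 [0.189-1.17], all with an interval that holds 1. Sox9 rests on 12 and 11 UMIs, 6.33 and 2.99 CPM, beside 9.13 and 8.43 CPM in villus tip-like cells. Sox4 rests on 27 and 34 UMIs. The median log2 ratio of the 8 was -0.57, against 0.10 for all genes and -0.24 for the 7 goblet markers, 6 of which also had a ratio below 1. Foxa2, a forkhead factor of goblet cells, had 49.1 and 31.0 CPM, a ratio of 0.631 [0.476-0.839], and Klf4, which goblet cells need to mature, had 1235 and 970 CPM.

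Secretory cells as a whole had 5 of 9 members at least 1.5-fold apart, 1 higher and 4 lower in Adipfl/flpVilli-CreT, beside 18.4% of all genes. Atoh1 was 282 and 242 CPM, a ratio of 0.857 [0.776-0.947], and Spdef 160 and 122 CPM, a ratio of 0.764 [0.667-0.876]. The 4 lower were Dll4, Gfi1, Sox9 and Sox4, with ratios of 0.594, 0.655, 0.406 and 0.600. The Sox9 ratio rests on 22 and 16 UMIs, with 6 of the 22 in 1 cell. Gfi1 was 0.774 with every cell weighted alike and Sox4 0.920 with under 10% mitochondrial UMIs, both inside 1.5-fold. Enteroendocrine-like cells held 162 of 189 and 169 of 203 secretory Sox4 UMIs and were 56 of 281 and 58 of 466 secretory cells. Within them Sox4 was 382 and 358 CPM, a ratio of 0.939 [0.752-1.17]. The member that was higher was Neurog3, 4.10-fold with the Adipfl/fl count of 0 set to 3 UMIs, with 21 of its 22 UMIs in 1 cell.

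**Figure D4:**
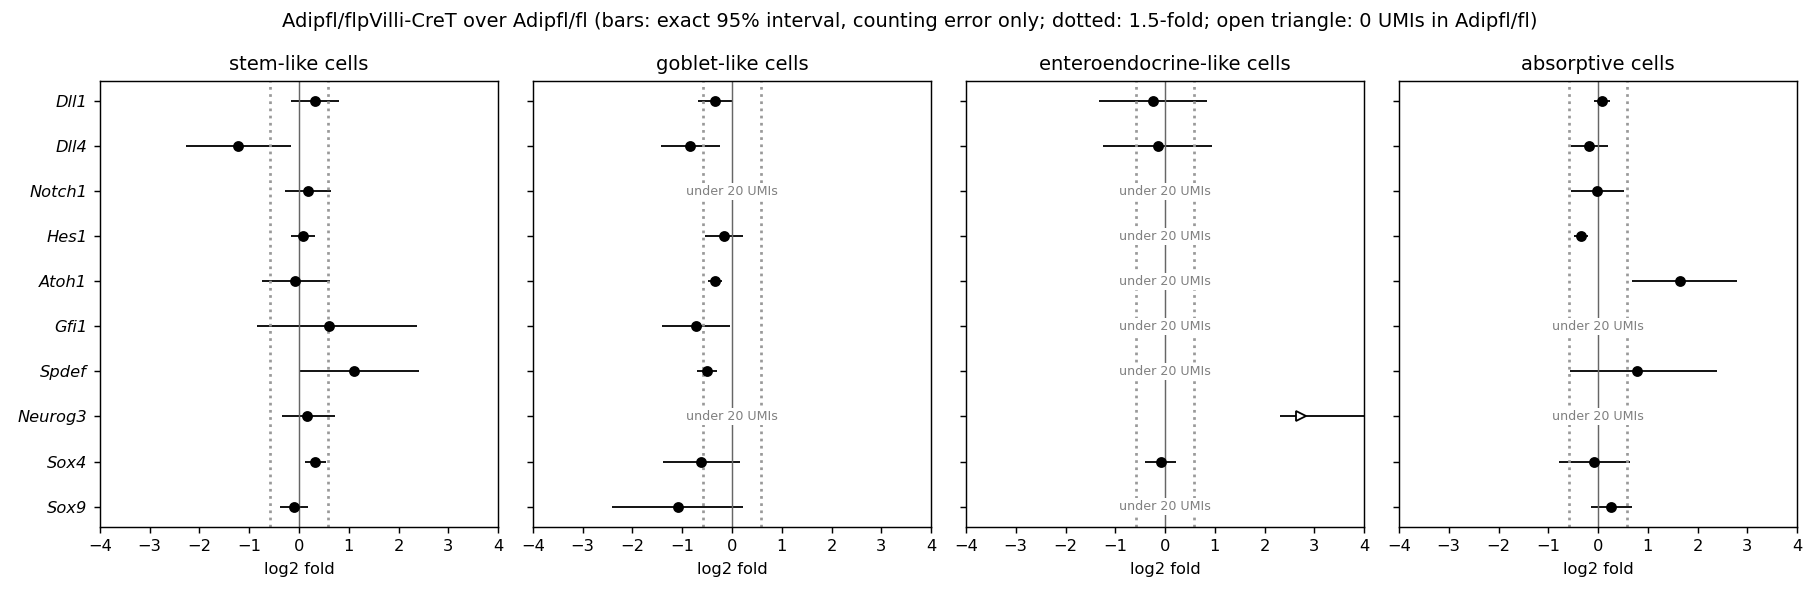
Log2 ratio of Adipfl/flpVilli-CreT to Adipfl/fl for each member in stem-like, goblet-like, enteroendocrine-like and absorptive cells, with exact 95% intervals, 1 library per genotype and dotted lines at 1.5-fold either way. All 8 goblet-like points lie below 0, from a ratio of 0.472 for Sox9 to 0.893 for Hes1. The open triangle for Neurog3 is the ratio with the Adipfl/fl count of 0 set to 3 UMIs. Genes under 20 UMIs have no point.

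In absorptive cells 2 of 8 members were at least 1.5-fold higher in Adipfl/flpVilli-CreT and none was that much lower, beside 10.5% of all genes that far apart. Both had few UMIs there. Atoh1 was 0.592 CPM [0.284-1.09] and 1.86 CPM [1.43-2.38], from 10 and 64 UMIs, a ratio of 3.15 [1.60-6.87]. Spdef was 0.355 and 0.611 CPM, from 6 and 21 UMIs, a ratio of 1.72 [0.672-5.21]. All 7 goblet markers were at least 1.5-fold higher in the same cells, with a median log2 ratio of 1.73. For each 1000 Muc2 UMIs, absorptive cells held 10.1 [4.83-18.7] and 9.14 [7.03-11.7] Atoh1 UMIs, the goblet-like cells 7.35 [6.80-7.94] and 6.64 [6.23-7.07], and the Adipfl/flpVilli-CreT T cell-like cells 7.81 [4.76-12.1]. In T cell-like cells, which should lack Atoh1, its level was 0.339 and 6.32 CPM, from 1 and 20 UMIs with 9 of the 20 in 1 cell. Of the 64 absorptive Atoh1 UMIs in Adipfl/flpVilli-CreT, 32 lay in villus bottom-like cells, 8 of them in 1 cell. The part of goblet RNA in the absorptive value was not tested. Hes1 in absorptive cells was lower in Adipfl/flpVilli-CreT, 39.0 CPM [36.1-42.1] and 30.9 CPM [29.0-32.8], a ratio of 0.791 [0.717-0.873]. By zone the ratio was 0.782 [0.679-0.902] at the villus bottom, 0.735 [0.616-0.880] in the mid-villus and 0.845 [0.678-1.06] at the tip, where the interval holds 1. Within the mid-villus it was 0.636 [0.497-0.818] in the clusters with 3 or more markers and 0.989 [0.763-1.28] in the rest. Dll1 in absorptive cells was 27.5 and 28.9 CPM, a ratio of 1.05. Within the mid-villus the Dll1 ratio was 1.31 [1.08-1.60] in the clusters with 3 or more markers and 0.814 [0.649-1.02] in the rest.

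The genes whose pattern was most like a member's are given as a description, by Pearson's r of log2(CPM + 1) over the 11 named classes of both libraries (22 points, 7366 genes with at least 50 CPM in some class). The points share libraries and depth, and the members were left out as partners. For Atoh1 they were Rep15 (r = 0.95), Bcas1 (r = 0.94) and the goblet marker Spink4 (r = 0.93). For Spdef they were Gm44985 (r = 0.93), the trefoil peptide Tff3 (r = 0.93) and Rep15 (r = 0.93), so Rep15 is in both lists. For Gfi1 they were Cracr2a (r = 0.89), the lymphocyte receptor Cd27 (r = 0.84) and the histone gene H4c4 (r = 0.82). For Notch1 they were Siva1 (r = 0.94), Jaml (r = 0.94) and Mcm4 (r = 0.94), a helicase subunit of DNA replication. For Hes1 they were the endotoxin co-receptor Cd14 (r = 0.87), Eif4ebp1 (r = 0.86) and Plac9a (r = 0.80). For Dll1 they were Etl4, Tnk1 and Tmc4 (each r = 0.91). For Sox4 they were Acer2 (r = 0.90), Mid1ip1 (r = 0.90) and Mob4 (r = 0.89). For Sox9 they were the tubulin Tuba4a (r = 0.88), Inpp5j (r = 0.88) and the RNA-binding protein Msi1 (r = 0.88).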

How the data were processed

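Small intestinal epithelium, which the paper describes as crypt-enriched, was dissociated and run on the 10x Chromium 3′ (V3) platform, 1 library per genotype. Crypt cells were 2.80% and 5.09% of the kept cells of Adipfl/fl and Adipfl/flpVilli-CreT. The deposited UMI counts per gene and barcode were made by the authors with bcl2fastq 5.0.1 and Cell Ranger (7.1.0 per the file headers) on mm10, per the submitters' processing notes. From these counts, cells with over 500 genes and under 25% mt- UMIs were kept. Seurat 5.3.0 (R 4.3.3) was run with LogNormalize (scale 10000), 2000 variable genes without the members and the pathway and lineage lists, 20 components and resolution 0.8, both libraries together. A marker counted for a cluster at 2-fold and 10 UMIs or more. Clusters with at least 5 stem or cycling markers were split again at 0.4, those with at least 4 markers of another class took its name, and the rest were enterocytes, zoned by at least 3 markers over all other cells. Where fewer were found, the zone was set by markers over cells that are no enterocytes, which placed 608 of 934 and 859 of 1556 mid-villus-like cells. A crypt cluster with 95% or more of its cells from 1 library stayed unnamed. Doublets were not removed. Scrublet scores (scanpy 1.11.5) were an alternative.

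UMIs were summed per class and library and given as CPM with exact Poisson intervals, shares with Clopper-Pearson intervals and folds with exact conditional intervals (scipy 1.17.1 and numpy 2.4.6 in Python 3.11.15). A count of 0 was set to 3 UMIs in folds. A gene was called past 1.5-fold with at least 20 UMIs. No test was run, since each genotype has 1 library. Kept cells held 25687687 and 48895126 of 42150623 and 63370798 UMIs. Adipoq had 1 and 0 UMIs over all barcodes, so the labels could not be checked by the targeted gene. Named were all members, list genes by role with enough UMIs or a large fold, and the 3 genes most like each member with 50 CPM or more in some class. Members and lists were chosen with earlier results of these data known. Alternatives covered filters, clustering, the denominator, the weight of cells, doublets and the minimum.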

Additional observations from a re-analysis of the deposited data

Results flagged for a closer look

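Some members had genotype ratios on opposite sides of 1 in 2 kinds of cells, with intervals that hold 1 in neither. The difference between the ratios was not tested, since each genotype has 1 library. Atoh1 had a ratio of Adipfl/flpVilli-CreT over Adipfl/fl of 0.857 in secretory cells and 3.15 in absorptive cells, where it had 10 and 64 UMIs. Spdef had a ratio of 2.95 in crypt cells, which was 1.24 with every cell weighted alike, and 0.764 in secretory cells. Within the classes, Spdef had a ratio of 2.16 in stem-like cells and 0.703 in goblet-like cells. With every cell weighted alike the stem-like ratio was 0.637, on the same side of 1 as in goblet-like cells. Goblet RNA was also higher in the crypt, absorptive and T cell-like cells of Adipfl/flpVilli-CreT. Its part in the Atoh1 and Spdef ratios was not tested. Sox4 had a ratio of 1.25 in stem-like cells and 0.456 in TA-like cells, where 38 of 88 Adipfl/fl UMIs lay in 1 cell.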

How the results depend on the processing

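No paired analysis was possible because each genotype has 1 library. The 5 counts of members stayed within 1.5 times in 48 of 57 recomputations. The crypt count of 3 members apart between genotypes was 1 at a minimum of 50 UMIs and 5 without the richest cell of each gene. The secretory count of 5 was 3 with under 10% mitochondrial UMIs, 3 at the minimum of 50 and 3 without the richest cell. The absorptive count of 2 was 1 with under 10% mitochondrial UMIs, with the 13 protein-coding mt- genes alone, with the 8% highest doublet scores removed and at the minimum of 50, and Atoh1 was the member left. Of 560 log2 ratios under alternatives, 516 stayed within their counting interval, 36 moved out of it and 8 past 1.5-fold turned direction. Of 40 shares of cells recomputed without thinning or at 1000 UMIs, 7 stayed within their interval and 33 moved, so a share holds for its depth alone. Spdef in TA-like cells was higher in Adipfl/flpVilli-CreT under the main setting, at 1.46 and 6.64 CPM. These values come from 2 and 19 UMIs, with 8 of the 19 in 1 cell. Its log2 ratio was -1.52 with under 10% mitochondrial UMIs and -2.55 without high doublet scores. With the mean of per-cell CPM, Gfi1 was -0.69 in crypt and -0.54 in stem-like cells and Spdef -0.65 in stem-like cells. Without high doublet scores, Dll4 was 0.30 in crypt and 0.19 in stem-like cells. Without the richest cell, which held 21 of the 22 Adipfl/flpVilli-CreT UMIs, Neurog3 in secretory cells was -2.42. That sign comes from setting the Adipfl/fl count of 0 to 3 UMIs, so the counts themselves did not turn. The causes of the other turns were not tested. All 8 goblet-like ratios were below 1 in each of 10 alternatives, between 0.764 and 0.849 for Atoh1 and between 0.685 and 0.720 for Spdef. Dll1 was under 1.5-fold higher in secretory cells with the 13 mt- genes and with mt- genes out of the denominator. Leaving out the richest cell or the unnamed cycling cells, taking goblet-like cells alone, thinning stem-like cells to 10000 UMIs and parting the mid-villus-like clusters were chosen after seeing the data. Members with under 20 UMIs in a class could not be compared there.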

Other observations

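Of the lineage factors that are no members, 7 had enough UMIs in goblet-like cells. Of these 1, Foxa2, was at least 1.5-fold lower in Adipfl/flpVilli-CreT and none was that much higher, beside 19.1% of all genes that far apart. A ratio below 1 was found for 5 of the 7, beside 40.0% of all genes there. Foxa3 had 195 and 161 CPM, a ratio of 0.823 [0.721-0.939]. Neurl1a, which acts on Notch ligands, had 34.8 and 20.7 CPM, a ratio of 0.593 [0.421-0.838]. Among the 31 pathway genes with enough UMIs, 4 were higher and 2 lower, which is 19.4% beside the same 19.1%. The glycosyltransferase Lfng had 3.70 and 7.61 CPM, a ratio of 2.06 [0.879-5.59] from 7 and 28 UMIs.

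In stem-like cells Foxa2 had 13.7 and 32.8 CPM, a ratio of 2.39 [1.36-4.55], with UMIs in 10 of 40 and 38 of 120 cells. Hes6, a relative of Hes1 that does not repress like it, had 68.5 and 103 CPM there, with the interval of the ratio from 1.15 to 1.97. In T cell-like cells Notch1 had 74.3 and 55.3 CPM, a ratio of 0.744 [0.606-0.912].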
